A study of Mus musculus with 6 samples.

Results

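The imprinted miRNAs of the Igf2/H19, Mest and Gnas regions are 10 mature miRNAs, the 5p and 3p arms of 5 hairpins, among the 1907 mature miRNAs listed for these mouse embryonic stem cell (ESC) libraries. They were chosen by name and by the place of their genes, as both listed arms of Mir483 in Igf2, Mir675 in H19, Mir335 in Mest and Mir296 and Mir298 beside Gnas. Small RNA was sequenced from 2 ESC lines, RB18 and RB20, in each of 3 media, which gave 6 libraries with 2 per medium. RB18 and RB20 are of C57BL/6 origin and began as R2i cultures with LIF, and their 2i and serum cells had spent 10 passages or more in those media. A library was made from 3 pooled cultures, so that 2 libraries of the same medium differ by line, by pool and by sequencing at once.

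All cultures grew without feeder cells on gelatin and received 1000 U/ml LIF, a cytokine that sustains self-renewal. Serum cultures contained 15% fetal bovine serum. The 2i cultures were kept in serum-free N2B27 medium with 1 µM PD0325901, an inhibitor of MEK, and 3 µM CHIR99021, an inhibitor of GSK3. The R2i cultures were kept in N2B27 medium with 1 µM PD0325901 and 10 µM SB431542, an inhibitor of the TGF-β receptor. Cells in 2i and in R2i are known as ground-state cells. Counts assigned to miRNAs totalled 1744187 in serum RB18, 2243369 in serum RB20, 2057602 in 2i RB18, 3365676 in 2i RB20, 1041858 in R2i RB18 and 3593356 in R2i RB20. The labelled cell type was checked with 12 arms of the miR-290 to miR-295 hairpins, the hallmark miRNAs of mouse ESCs. These 12, which do not include the arms of miR-291b, made up 33.0% to 42.9% of the counts of each library.

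Imprinted genes are expressed from only the maternal or only the paternal chromosome, often as fixed by DNA methylation that is laid down in the germline. Igf2, a fetal growth factor, and Mest are active on the paternal copy, whereas the long noncoding RNA H19 is active on the maternal copy, and the Gnas region holds transcripts of both kinds, among them the paternal antisense RNA Nespas. A miRNA inside such a gene is cut from a hairpin in the RNA, and 1 or both arms of the hairpin are then loaded into Argonaute, where the seed at bases 2 to 8 selects target mRNAs.

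The mature sequences are shown because each arm can pair with its own set of targets. They are RefSeq sequences of build GRCm38.p6, written 5′ to 3′ with the seed in capitals, and an entry was found for 10 of the 10 miRNAs. The mouse prefix mmu is left out of the names from here on.
mmu-miR-483-3p: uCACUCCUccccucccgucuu
mmu-miR-483-5p: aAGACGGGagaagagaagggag
mmu-miR-675-3p: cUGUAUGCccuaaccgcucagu
mmu-miR-675-5p: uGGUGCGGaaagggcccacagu
mmu-miR-335-5p: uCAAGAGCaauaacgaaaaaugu
mmu-miR-335-3p: uUUUUCAUuauugcuccugacc
mmu-miR-298-5p: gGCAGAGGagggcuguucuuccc
mmu-miR-298-3p: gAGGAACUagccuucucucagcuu
mmu-miR-296-5p: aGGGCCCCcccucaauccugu
mmu-miR-296-3p: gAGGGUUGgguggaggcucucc
The 10 seeds differed from each other, and 0 of the other mature miRNAs among the 1679 names in the same RefSeq table carried any of them. Each mature sequence was found in 1 hairpin of that table, so no second hairpin listed there holds the same sequence. The table gave a mature sequence for 1623 of the 1907 listed miRNAs, and other sequences were not compared.

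The hairpins show how the arms lie in the precursor. In the RefSeq hairpins, again 5′ to 3′, the capitals mark the 5p arm and then the 3p arm.
Mir483: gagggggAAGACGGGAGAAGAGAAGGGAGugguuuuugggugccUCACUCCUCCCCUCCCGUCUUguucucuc
Mir675: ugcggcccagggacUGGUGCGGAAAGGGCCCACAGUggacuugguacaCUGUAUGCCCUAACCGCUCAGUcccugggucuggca
Mir335: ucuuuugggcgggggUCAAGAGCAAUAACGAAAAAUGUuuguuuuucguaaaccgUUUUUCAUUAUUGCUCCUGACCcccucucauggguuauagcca
Mir298: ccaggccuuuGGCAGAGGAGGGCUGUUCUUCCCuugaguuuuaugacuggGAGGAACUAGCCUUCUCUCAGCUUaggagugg
Mir296: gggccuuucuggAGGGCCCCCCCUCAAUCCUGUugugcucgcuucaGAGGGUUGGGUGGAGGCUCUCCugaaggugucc
Mir483 lies at chr7:142654924-142654996 on the minus strand (GRCm38), inside an intron of 7 annotated Igf2 transcripts and of 1 transcript of Gm49394 on the same strand. Mir675 lies 77777 bases away at chr7:142577064-142577147 on the same strand, in an exon of 3 H19 transcripts and in an intron of 1. Mir335 lies at chr6:30741299-30741396 on the plus strand, inside an intron of 7 Mest transcripts. Mir298 at chr2:174267504-174267585 and Mir296 at chr2:174267047-174267125 are only 379 bases apart on the minus strand. No other annotated gene covers these last hairpins, and Mir298 lies 13652 bases past the annotated end of Nespas, which runs in the same direction.

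Levels differed widely among the 10 miRNAs. They are given in CPM, the count scaled to a library total of 1e6, and intervals on them are 95% intervals that cover counting error only. By mean CPM over the 6 libraries, miR-298-5p was the most abundant at rank 31 of the 1907 listed miRNAs. It was followed by miR-335-5p at rank 68 and miR-335-3p at rank 77. The arms of Mir296 were next, miR-296-5p at rank 145 and miR-296-3p at rank 152, and neither member of these neighbouring pairs was the higher in every library. The remaining members were scarce, with miR-298-3p at rank 406, miR-483-3p at 421, miR-483-5p at 576, miR-675-3p at 601 and miR-675-5p at 809. These ranks pool the media. Within serum RB18 and RB20, miR-483-3p was at ranks 268 and 322, above miR-298-3p at 402 and 431, but it was below miR-298-3p in each 2i and R2i library. Together the 10 miRNAs took between 0.640% of the counts (serum RB20) and 0.889% (serum RB18).

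**Figure D1:**
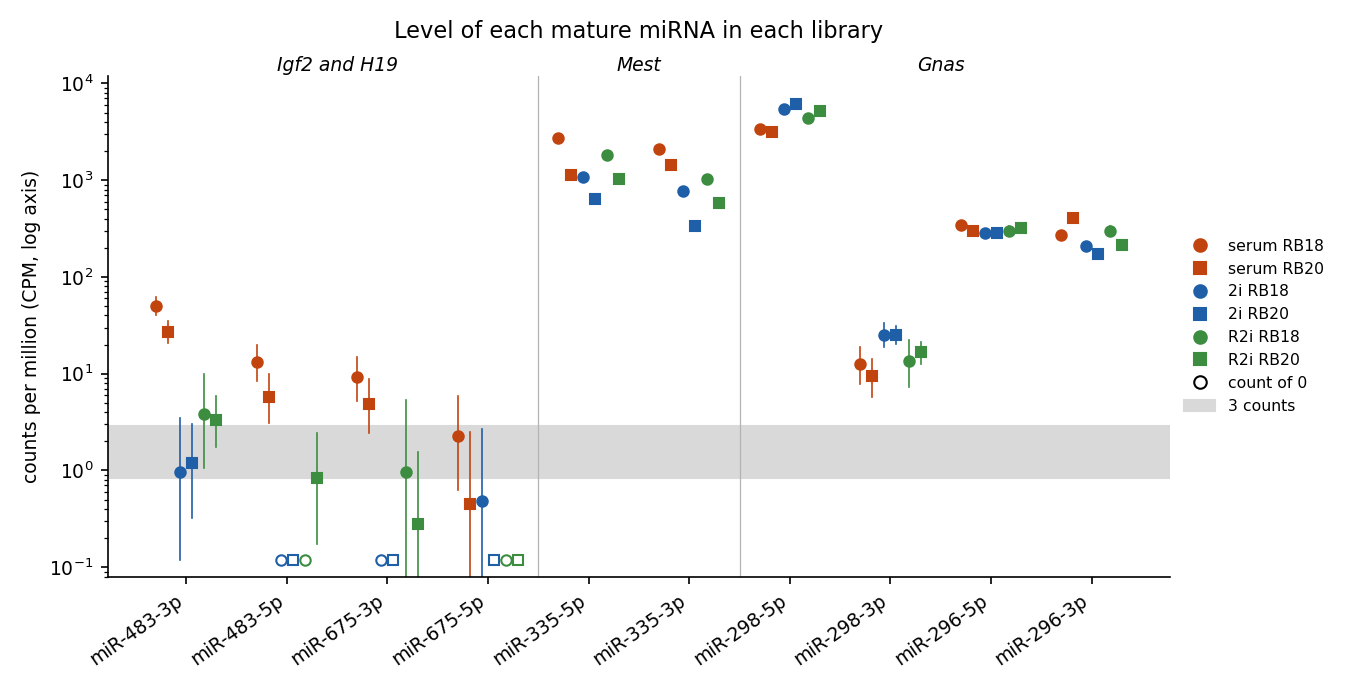
Level of the 10 miRNAs in each library, in CPM on a log axis, with circles for RB18, squares for RB20 and vertical lines for 95% Poisson intervals. Open symbols at the foot of the axis are counts of 0 and the grey band spans the level of 3 counts over the libraries. The miRNAs of Igf2 and H19 reached their highest levels in serum, and miR-298-5p its lowest.

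Differences between media were tested with edgeR on all miRNAs that passed a filter on low counts, and a miRNA was called when its adjusted p was under 0.01 and its fold change over 2. The filter kept 571 miRNAs and 9 of the 10 members. It required about 4.65 CPM in at least 2 libraries, which miR-483-3p, miR-483-5p and miR-675-3p reached in serum alone, so a lower level in the other media was built into their passing and both the counts of members called and the p-values of these 3 against serum are given as a description. In 2i against serum, 3 members were called lower, beside 17.3% of all tested miRNAs, and 0 were called higher, beside 16.8%. In R2i against serum, 1 was called lower, beside 15.6%, and 0 higher, beside 15.1%. In 2i against R2i, 0 were called lower, beside 0% of all tested miRNAs, and 0 higher, beside 0.350%. With 2i and R2i averaged as the ground state, 4 members were called lower than in serum, beside 20.0%, and 0 higher, beside 17.0%. DESeq2 and limma also called 0 members higher in any of these comparisons and 0 members in 2i against R2i. Each called 4 members lower in 2i, where miR-335-3p was added, beside 18.9% of all tested miRNAs with DESeq2 and 17.2% with limma, and 1 in R2i, beside 15.9% and 14.5%. For the ground state DESeq2 called 4, beside 19.4%, and limma 3, beside 17.7%. Without adjustment, edgeR gave a p under 0.05 to 6 members lower and 2 higher in 2i, beside 29.1% and 28.5% of all tested miRNAs. For R2i these were 4 lower and 0 higher, beside 26.8% and 22.8%, and for the ground state 6 lower and 2 higher, beside 29.9% and 27.7%. In 2i against R2i they were 1 lower and 1 higher, beside 10.7% and 7.53%. The comparisons with serum share the same 2 serum libraries. Because a permutation of 2 libraries against 2 cannot give a two-sided p below 0.33, these p-values rest on the spread that edgeR shares across miRNAs.

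The Igf2 miRNA miR-483, transcribed with its host gene and raised in Wilms tumours along with it, was found mainly in serum cells. miR-483-3p was counted 88 times in serum RB18 and 61 times in serum RB20. It was counted 2 and 4 times in the 2i libraries of RB18 and RB20, and 4 and 12 times in the R2i libraries. Both serum libraries, at 50.5 and 27.2 CPM, thus lay far above the others, which held 0.972 and 1.19 CPM in 2i and 3.84 and 3.34 CPM in R2i. The level in serum was 33.8 times that in 2i by pooled counts (95% interval 15.2 to 93.5). The log2 fold change in 2i was −5.06 with an SE of 0.46 (edgeR, adjusted p = 8.43e-05), and the level was lower in both lines. Against R2i the pooled ratio was 10.8 (6.45 to 19.4). The log2 fold change in R2i was −3.49 with an SE of 0.41 (edgeR, adjusted p = 0.000350), again with a lower level in both lines. The R2i libraries were above the 2i libraries in each line, but this difference was not called (log2 fold change of 2i against R2i −1.57 with an SE of 0.58, edgeR, adjusted p = 0.206). Of all 571 tested miRNAs, 4 had a more negative fitted change than miR-483-3p in 2i and 6 in R2i. Among these were miR-483-5p and miR-675-3p in both comparisons. The rank too is only a description, because passing the filter through serum alone built in a lower level elsewhere.

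The other arm of the hairpin was likewise highest in serum, at a lower level. miR-483-5p was counted 23 times in serum RB18 and 13 times in serum RB20, 0 times in both 2i libraries, and 0 and 3 times in R2i RB18 and R2i RB20. Serum was the only medium in which both lines held it, at 13.2 and 5.79 CPM. A count of 0 allows up to 1.46 CPM in 2i RB18 and 0.891 CPM in 2i RB20, taking 3 counts as the limit in each library. By the means of the 2 libraries, the level in 2i was therefore lower than that of serum cells by at least 8.08-fold (edgeR, adjusted p = 0.00368). The bound was 9.04-fold within RB18 and 6.50-fold within RB20, and it fell to 4.93-fold without serum RB18 and rose to 11.2-fold without serum RB20. This call ended without serum RB18 (adjusted p = 0.0232, edgeR), without 2i RB20 (0.0229) and with the line fitted as a block (0.0102). The adjusted p ran from 0.00603 to 0.0232 over the 6 libraries left out in turn and from 9.82e-08 to 0.0102 over the other alternatives, by edgeR, DESeq2 or limma. In R2i the level in serum was 13.9 times higher by pooled counts (95% interval 4.41 to 70.8), which was not called (edgeR, adjusted p = 0.0140). That ratio was 8.95 (2.46 to 49.0) without serum RB18, and without R2i RB20, the only R2i library to hold the miRNA, serum was at least 3.30-fold higher by the means. Since both 2i and R2i libraries held at most 3 counts, no fold between them can be given.

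miR-675, which is cut from H19 itself and restrains growth of the placenta, was even scarcer and lay on the same side. miR-675-3p was counted 16 times in serum RB18 and 11 times in serum RB20. It was counted 0 times in both 2i libraries and once in each R2i library. The serum libraries, at 9.17 and 4.90 CPM, were again apart from all others, and the difference from 2i was at least 5.99-fold by the means (edgeR, adjusted p = 0.00396), or 6.29-fold within RB18 and 5.50-fold within RB20. Without serum RB18 the miRNA no longer entered the test, and without any of serum RB20, 2i RB18, 2i RB20 or R2i RB18 the call ended, with adjusted p-values from edgeR of 0.0102 to 0.0316. The pooled ratio of serum to R2i was 15.7 (95% interval 3.94 to 136), and this was not called (edgeR, adjusted p = 0.0146). With 1 count in each R2i library, the ratio was 7.05 (1.16 to 289) without R2i RB20 and 24.3 (4.01 to 996) without R2i RB18. miR-675-5p did not pass the filter, with 4 and 1 counts in serum RB18 and RB20, 1 in 2i RB18 and 0 in the other libraries. Its level was at or near the limit of 3 counts throughout, so a difference between media was not detectable at this depth.

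Summed over both arms, Mir483 gave 185 counts in the serum libraries, 6 in those of 2i and 19 in those of R2i, and Mir675 gave 32, 1 and 2 in the same order. The hairpins of Igf2 and H19, whose host genes are active on opposite parental copies, were thus both highest in serum. In bulk libraries, fewer cells that express a miRNA and less of it per cell cannot be told apart. The muscle list among the cell type markers lay on the same side as these hairpins. Its 3 miRNAs summed to 83.1 and 41.9 CPM in serum RB18 and RB20, 0.486 and 0.297 CPM in 2i and 8.64 and 3.90 CPM in R2i, and 2 of the 2 tested were called lower in the ground state by edgeR. This too is a description, since both passed the filter through serum and only miR-1a-3p reached its level in another library, R2i RB18. The most abundant was miR-133a-3p, whereas miR-206-3p, which is particular to skeletal muscle, was at 0 in all libraries but serum RB20, where it had 3 counts. miRNAs of heart and slow muscle that were not on the list lay on both sides. In serum RB18 and RB20, miR-208b-3p stood at 90.35 and 42.63 TMM-scaled CPM, above 2i (7.29 and 0.916) and R2i (4.29 and 3.43). For miR-499-5p the same serum libraries held 15.9 and 16.4, below 2i (144 and 159) and R2i (81.5 and 175). The part of these muscle miRNAs in the Igf2 and H19 results was not tested.

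Mest, an imprinted gene of the mesoderm and placenta, carries miR-335, known as a suppressor of metastasis in breast cancer cells. miR-335-3p stood at 2080 CPM in serum RB18 and 1430 CPM in serum RB20. It stood at 766 and 335 CPM in 2i RB18 and RB20, and at 1040 and 584 CPM in R2i RB18 and RB20. Both serum libraries were above all others, and within each line the order was serum, then R2i, then 2i. The log2 fold change was −1.69 with an SE of 0.41 in 2i, just short of a call (edgeR, adjusted p = 0.0112). In R2i it was −1.23 with an SE of 0.41 (edgeR, adjusted p = 0.0448). With both media averaged as the ground state it was −1.46 with an SE of 0.34 and was called (edgeR, adjusted p = 0.00763), with a lower level in both lines. That call depended on the libraries used, since it ended on leaving out any library but 2i RB18, with log2 fold changes of −1.66 to −1.17 and adjusted p-values of 0.0101 to 0.0718 from edgeR. The difference between 2i and serum was called in 7 of 10 alternative analyses, 1 of which only raised the limit on adjusted p to 0.05, with log2 fold changes of −1.79 to −1.64 over the 10 and adjusted p-values of 1.30e-06 to 0.0150 from edgeR, DESeq2 or limma. With the line fitted as a block it was called (edgeR, adjusted p = 0.00386). Leaving out each library in turn gave −2.35 to −1.19 (edgeR, adjusted p from 0.00172 to 0.0626), with a call only without 2i RB18. A lower level of this size was not unusual: 96 of the 571 tested miRNAs had a more negative change in 2i, and 119 in R2i.

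miR-335-5p, from the other arm, varied more between the lines. It stood at 2730 CPM in serum RB18 but at 1120 CPM in serum RB20, while the 2i libraries held 1070 and 636 CPM and the R2i libraries 1810 and 1040 CPM for RB18 and RB20. Serum and R2i overlapped, because the serum RB20 library was below R2i RB18. The log2 fold change in 2i was −1.16 with an SE of 0.42 (edgeR, adjusted p = 0.0523), and −0.42 without serum RB18 (edgeR, adjusted p = 0.416). In R2i it was −0.52 with an SE of 0.42 (edgeR, adjusted p = 0.364), and without serum RB18 it turned to 0.23. For the ground state it was −0.84 with an SE of 0.35 (edgeR, adjusted p = 0.0815), and −0.09 without serum RB18, so the size of the difference rests on that library. Within each line, however, the order was the same as for the 3p arm, with serum above R2i and R2i above 2i.

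In the Gnas region only Mir298 had its lowest levels in serum. miR-298-5p, the most abundant of the 10 miRNAs, stood at 3360 CPM in serum RB18 and 3120 CPM in serum RB20. It stood at 5390 and 6150 CPM in 2i RB18 and RB20, and at 4380 and 5160 CPM in R2i. Both serum libraries were below all others, and within each line the order was 2i, then R2i, then serum, the reverse of that of miR-335-3p. The differences were smaller than 2-fold and were not called, with log2 fold changes of 0.81 with an SE of 0.24 in 2i (edgeR, adjusted p = 0.0251) and 0.47 with an SE of 0.24 in R2i (edgeR, adjusted p = 0.164). With each library left out in turn, the value in R2i ran from 0.23 to 0.67. For the ground state the log2 fold change was 0.64 with an SE of 0.21 (edgeR, adjusted p = 0.0386). As background, 166 of the 571 tested miRNAs (29.1%) had both serum libraries below the other 4, and 185 (32.4%) had both above, on TMM-scaled CPM. By its share among the 10 miRNAs, miR-298-5p made up 37.9% and 48.7% of their counts in serum RB18 and RB20, 69.5% and 80.8% in 2i, and 55.8% and 70.3% in R2i.

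The opposite arm of this hairpin was rare in every library. miR-298-3p was counted 22 and 21 times in serum RB18 and RB20, 52 and 85 times in 2i, and 14 and 60 times in R2i. In CPM the 2i libraries, at 25.3 each, were above both serum libraries (12.6 and 9.36) and both R2i libraries (13.4 and 16.7). How many other miRNAs set 2i apart in this way was not counted. In CPM, R2i was slightly above serum in RB18 and further above it in RB20. The log2 fold change in R2i against serum was 0.43 with an SE of 0.32 and was not called (edgeR, adjusted p = 0.338). The log2 fold change in 2i against serum was 1.19 with an SE of 0.31, over 2-fold but short of a call (edgeR, adjusted p = 0.0145). In 2i against R2i it was 0.76 with an SE of 0.30 (edgeR, adjusted p = 0.235).

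miR-296, which targets Nanog and other pluripotency mRNAs in differentiating ESCs, had arms that differed in how much they varied. miR-296-5p stood at 346 and 295 CPM in serum RB18 and RB20, 286 CPM in both 2i libraries, and 298 and 323 CPM in R2i. The 3 media nearly coincided, and the log2 fold change for the ground state was −0.16 with an SE of 0.20 (edgeR, adjusted p = 0.544). miR-296-3p stood at 271 and 403 CPM in serum RB18 and RB20, 209 and 174 CPM in 2i, and 300 and 212 CPM in R2i. It was lower in 2i than in serum in both lines, but by different amounts, and was not called (log2 fold change −0.87 with an SE of 0.31, edgeR, adjusted p = 0.0497). With each library left out in turn this change ran from −1.10 to −0.47, and was smallest without serum RB20. Serum and R2i overlapped for this arm.

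**Figure D2:**
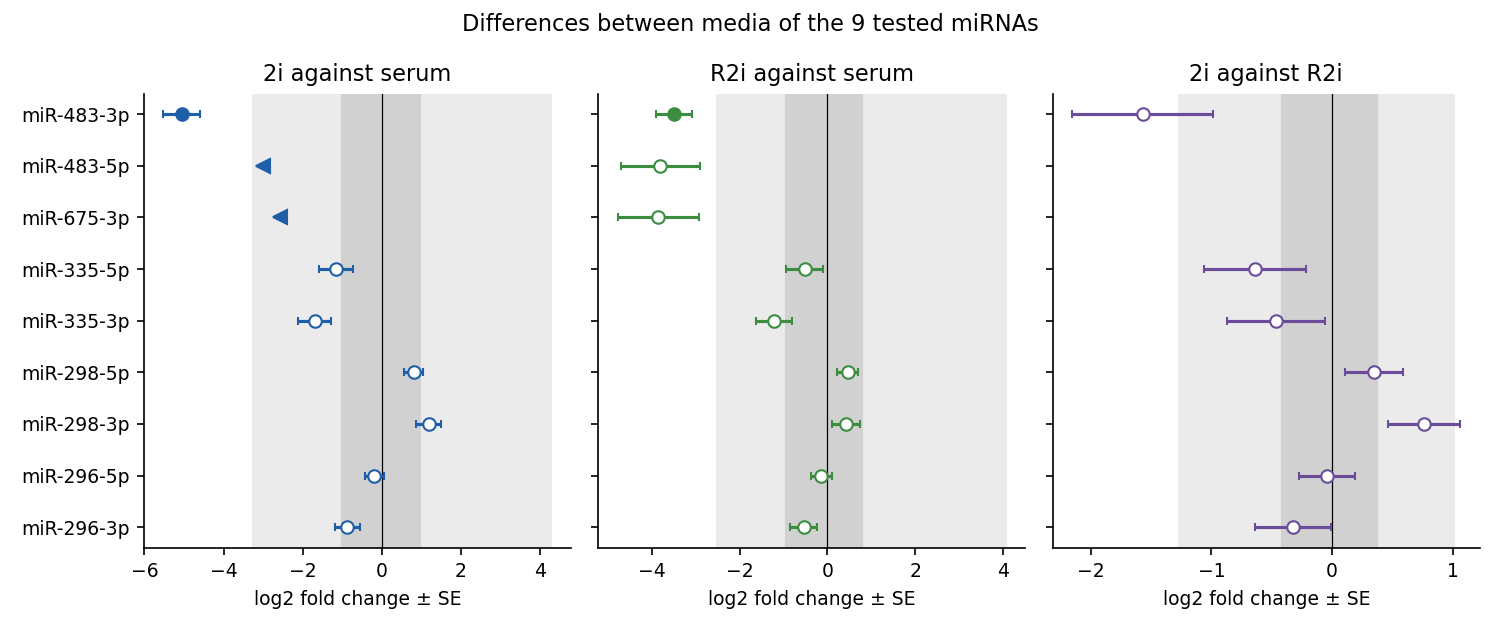
Log2 fold change from edgeR, with an SE derived from its F statistic, for the 9 tested miRNAs in 3 comparisons. Filled points are called differences, and bands hold the middle 50% (dark) and 90% (light) of all 571 tested miRNAs. Triangles mark bounds for miR-483-5p and miR-675-3p, which were at 0 in both 2i libraries, and no fold is drawn for them in 2i against R2i. miR-483-3p lay outside the light band in each panel, and the Mest and Gnas miRNAs lay within it. Against serum this place is a description, as miR-483-3p passed the filter through serum alone. In 2i against R2i its value rests on 6 counts against 16 and was not called.

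Although Mir298 and Mir296 are close neighbours on the same strand, their measured proportion was not the same in the libraries of the 3 media. For every count of Mir296, with both arms summed, there were 5.47 counts of Mir298 in serum RB18 (95% interval 5.13 to 5.84) and 4.48 in serum RB20 (4.24 to 4.73). The ratio was 10.9 (10.3 to 11.7) and 13.4 (12.7 to 14.1) in 2i RB18 and RB20, and 7.35 (6.76 to 8.0) and 9.67 (9.22 to 10.1) in R2i. The 3 media did not overlap, and each line ranked them serum, R2i, 2i. How often other pairs of hairpins separate the media in this way was not counted. The ratio is taken within a library and so does not depend on how libraries are scaled, but with 2 libraries per medium it was not tested. Mir335, both arms summed and scaled with TMM factors, ran the other way, from 4598 and 2826 CPM in serum RB18 and RB20 through 2550 and 1669 CPM in R2i to 1838 and 998 CPM in 2i.

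**Figure D3:**
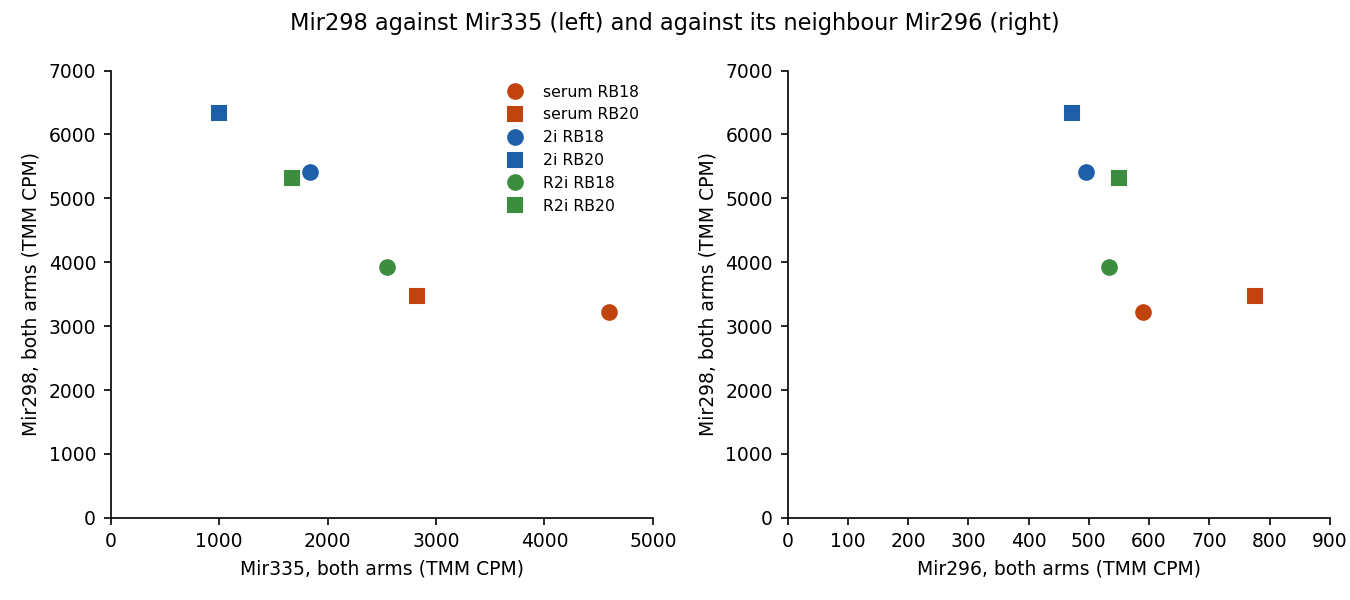
Level of Mir298 against Mir335 (left) and against Mir296 (right), both arms summed, in TMM-scaled CPM, with 1 point per library and both axes starting at 0. The 2i libraries have the most Mir298 and serum the least, while Mir335 and Mir296 are highest in serum.

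The arms of a hairpin were not always used in the same proportion. In Mir298 the 5p arm made up 99.5% to 99.7% of the counts in every library. In Mir335 it made up 56.8% in serum RB18 (95% Wilson interval 55.7 to 57.8) and 43.9% in serum RB20 (42.6 to 45.2). The share was 58.4% (56.8 to 59.9) and 65.5% (63.9 to 67.1) in 2i RB18 and RB20, and 63.6% (61.8 to 65.3) and 64.0% (62.8 to 65.3) in R2i. Both serum libraries had the lower shares, although the intervals of serum RB18 and 2i RB18 overlapped. In Mir296 the 5p share was likewise lowest in serum RB20, at 42.2% (39.8 to 44.7), and was 56.1% (53.1 to 59.0) in serum RB18. It was 57.8% (54.7 to 60.8) and 62.2% (59.8 to 64.6) in 2i RB18 and RB20, and 49.8% (45.8 to 53.7) and 60.4% (58.2 to 62.5) in R2i, so that serum and R2i overlapped.

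These shifts were large for a hairpin of these libraries. Over the 90 hairpins with at least 100 counts for both arms together and 10 for each arm in every library, the highest and lowest 5p share differed by a median of 3.63 percentage points, against 21.7 for Mir335 and 20.0 for Mir296. Serum RB20 also had the lowest 5p share for 30 of these 90 hairpins (33.3%), more than any other library. Its median deviation from the mean share of each hairpin was 0.0315 points, and those of the other libraries ran from −0.0102 to 0.0343. Without serum RB20 the range was 8.77 points for Mir335 and 12.5 for Mir296, beside a median of 2.48. The part of this library in the shares was not tested further. In Mir483 the 5p arm made up 20.7% (14.2 to 29.2) and 17.6% (10.6 to 27.8) in serum RB18 and RB20. It made up 20.0% (7.05 to 45.2) in R2i RB20, from 15 counts of both arms. The libraries 2i RB18, 2i RB20 and R2i RB18 held at most 4 counts each, too few for a share. Mir675 had 20.0% (8.07 to 41.6) and 8.33% (1.49 to 35.4) in serum.

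**Figure D4:**
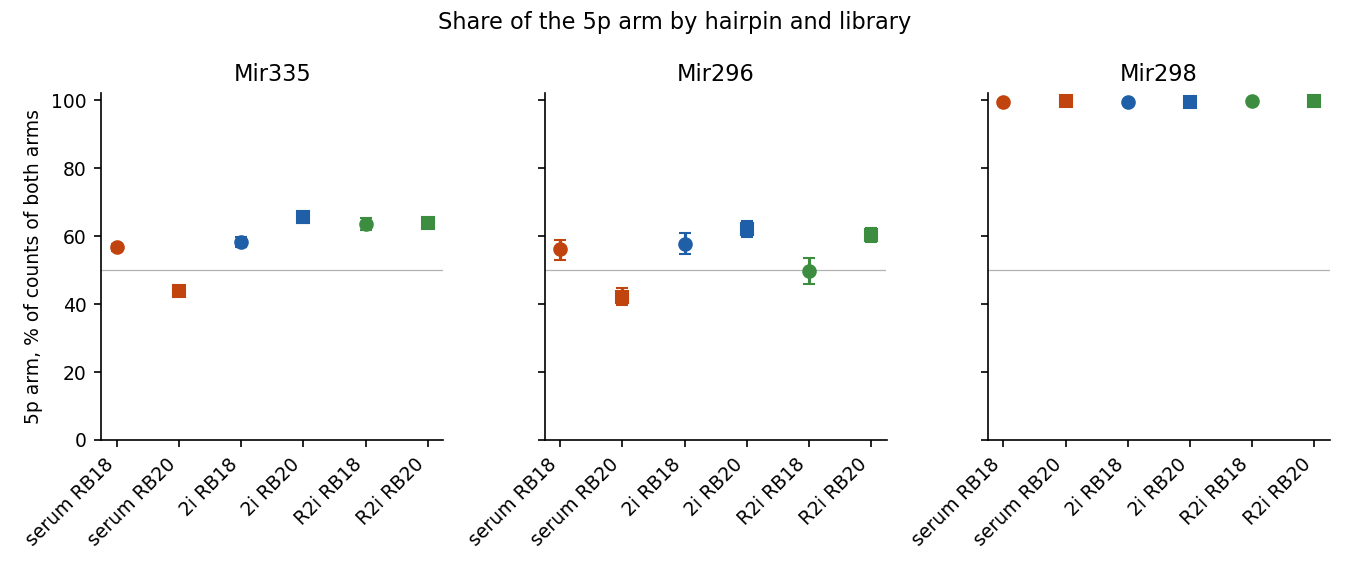
Share of the 5p arm in the counts of both arms for Mir335, Mir296 and Mir298 in each library, with 95% Wilson intervals. Serum RB20 has the lowest share for Mir335 (43.9%) and Mir296 (42.2%), and Mir298 stays above 99% in all 6 libraries.

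The miRNAs most like each hairpin were found from the Pearson r of log2(TMM-scaled CPM + 1) over the 6 libraries, as a description. For miR-483-3p they were miR-467a-5p (r = 0.998), miR-466e-3p (0.997) and miR-467d-5p (0.996), which all lie inside Sfmbt2, another imprinted gene. For miR-675-3p they were miR-297b-3p (0.997), miR-466a-3p (0.994) and miR-467d-5p (0.992). With serum set apart from the other media such values are common, and 87 of the 562 tested miRNAs outside the 10, or 15.5%, had an r over 0.9 with miR-483-3p. Such an r was held by 84, or 14.9%, with miR-675-3p. Only 2 had one with miR-335-5p, namely miR-22-5p (0.937) and miR-150-5p (0.908), followed by miR-34a-5p (0.898). With miR-298-5p, 31 of the 562, or 5.52%, had an r over 0.9. The nearest were miR-1981-5p (0.989), let-7g-3p (0.971, from 3 to 19 counts per library) and miR-23b-3p (0.965). For miR-296-5p they were miR-291a-5p of the ESC cluster (0.963), miR-101a-5p (0.896) and miR-338-3p (0.889), all with small differences between media or low counts.

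The large imprinted miRNA clusters give a scale for these values. Between Dlk1 and Dio3, 78 of 116 listed miRNAs were tested, and 67 were called higher and 0 lower in ground-state cells. Their median log2 fold change was 3.91, or 3.81 with the 3 that were at 0 in serum set to their bound. Of the 78, 37 were under 4.65 CPM in both serum libraries and so had passed the filter through the other media alone, which built a higher level there into their passing. Inside Sfmbt2, 49 of 64 were tested, and 47 were called lower and 0 higher, with a median of −2.71. Here 10 of the 49 had passed the filter through serum alone. Over all 571 tested miRNAs the median was −0.02. The most abundant Dlk1-Dio3 miRNA, miR-127-3p, had a log2 fold change of 3.59 with an SE of 0.40 (edgeR, adjusted p = 0.000172). For miR-467c-5p, the most abundant in Sfmbt2, it was −3.32 with an SE of 0.22 (edgeR, adjusted p = 3.38e-05). The change of miR-483-3p was −4.28 with an SE of 0.34 (edgeR, adjusted p = 4.32e-05). It had the direction of the Sfmbt2 miRNAs and went beyond their median. This comparison is a description, because miR-483-3p passed the filter through serum alone. On the side of Dlk1-Dio3, miR-298-5p moved far less.

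Other cell type markers were given beside these results as measured levels. The 12 ESC miRNAs had 0 called in either direction in the ground state by edgeR, and made up 42.9% and 33.0% of the counts in serum RB18 and RB20, 40.4% and 38.3% in 2i and 42.1% and 40.3% in R2i, with miR-295-3p the most abundant. The 5 mesenchyme and fibroblast miRNAs summed to 1500 and 1840 CPM in serum, 3330 and 3550 CPM in 2i and 2700 and 2360 CPM in R2i, led by miR-143-3p, and 0 of the 4 tested were called. Like miR-298-5p, their sum was lowest in both serum libraries. The 6 blood miRNAs summed to 2690 and 2590 CPM in serum, 4820 and 1780 CPM in 2i and 861 and 343 CPM in R2i, led by miR-142a-5p. Of the 4 tested, miR-451a was called higher, which is a description because it passed the filter through 2i and R2i alone, and miR-223-3p was at 0 in all libraries. The 3 liver and visceral endoderm miRNAs, led by miR-192-5p, summed to between 1470 and 2400 CPM, and the 2 neural miRNAs, led by miR-124-3p, to between 419 and 788 CPM, with 0 called in either list. The part of these markers in the Mest and Gnas values was not tested.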

How the data were processed

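ESC libraries were grouped by medium, as the sample titles give it, with the cell line as replicate. Per the labels, the submitters' processing notes name FastQC 0.11.5, cutadapt 1.3, Bowtie 1.1.2, featureCounts 1.5 and build mm10 (GRCm38). The authors deposited whole-number counts of 1907 mature miRNAs, and how reads that align to several places were counted is not given in the sources used here. The authors also deposited log2 values for 1233 miRNAs, equal to log2(count / size factor + 1) within 0.0055.

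Counts were filtered with filterByExpr (minimum count 10, minimum total 15), scaled by TMM and tested with the quasi-likelihood test of edgeR 4.0.16, with Benjamini-Hochberg adjustment over 571 miRNAs. The biological coefficient of variation was 24.6%. Alternatives used DESeq2 1.42.0, limma 3.58.1 on the log2 values, other filters and scaling, a block for the line and each library left out. The lines pair the libraries by origin, and RB20 minus RB18 differences over tested miRNAs correlated at 0.211 between serum and 2i, 0.243 between 2i and R2i, and −0.128 between serum and R2i. The main fit has no block, as the study merged both lines.

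Intervals on ratios of pooled counts are exact binomial. Named are the 10 members, the 3 tested miRNAs nearest in pattern to the more abundant tested arm of each hairpin, any that share a seed, the most abundant of the Dlk1-Dio3 and Sfmbt2 comparators (all genes of a miRNA inside the locus by RefSeq or GENCODE M21, with 1905 of 1907 names placed) and the marker lists. The members and lists were chosen with earlier results of these data known.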

Additional observations from a re-analysis of the deposited data

Results flagged for a closer look

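In 4 cases the lines gave opposite signs, by differences of log2(TMM-scaled CPM + 1). For miR-296-3p in R2i against serum, RB18 gave 0.05 and RB20 −1.04, so RB20 minus RB18 was −1.09. For miR-296-5p in the same comparison, RB18 gave −0.31 and RB20 0.02, a difference of 0.33. For miR-298-3p RB18 gave −0.00413, which is almost no change, and RB20 0.67, a difference of 0.67. For miR-296-5p in 2i against R2i, RB18 gave 0.11 and RB20 −0.18, a difference of −0.28. By CPM without TMM factors the lines did not differ in sign for these last miRNAs. There miR-298-3p was higher in R2i than in serum (13.4 against 12.6 in RB18, 16.7 against 9.36 in RB20). Likewise miR-296-5p was lower in 2i than in R2i (286 against 298 in RB18, 286 against 323 in RB20). These single differences were not tested. Such opposite signs were seen for 22.1% of the 571 tested miRNAs in R2i against serum and for 28.2% in 2i against R2i. For the ground state against serum, the interaction with the line was tested with edgeR, and 0 of 571 miRNAs had an adjusted p under 0.05, with 27 at an unadjusted p under 0.05. It was −1.06 on the log2 scale for miR-296-3p (edgeR, adjusted p = 0.790).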

How the results depend on the processing

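Processing was varied by DESeq2, scaling to totals instead of TMM, no filter, a stricter filter, an adjusted p under 0.05, a replicate block for the line, limma on the log2 values, a fit of only the media compared, and, chosen after seeing the data, by leaving out the 5 most abundant miRNAs and by a crossed block. In these fits 323 values of members kept direction and side of the threshold, 16 gained a call, 2 lost one and 0 reversed. miR-483-3p was called lower in 2i, R2i and the ground state in each fit that held the comparison. The values lost were miR-483-5p in 2i under the block (adjusted p = 0.0102, edgeR) and miR-335-3p in the ground state with limma (log2 fold change −1.48, adjusted p = 0.0105).

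Without a filter, 5 members were called lower and 1 higher in 2i, beside 10.1% and 10.5% of all 1233 miRNAs, and 4 lower in R2i, beside 111 of the 1233. The stricter filter, which removed miR-483-5p and miR-675-3p, left 2 lower in the ground state, beside 20.1% of 546. At an adjusted p under 0.05, 1 member was higher in 2i, beside 21.9% of the 571, and 4 were lower in R2i, beside 20.3%. For 2i against R2i over all tested miRNAs, DESeq2 called 6 lower and 8 higher, no filter gave 11 and 14, and the replicate block and the fit of only these media gave 0 higher. Apart from the calls named, the block changed only miR-335-3p in 2i, which gained a call at −1.79. The crossed block called 3 members lower in 2i, beside 15.8% of all tested miRNAs, 1 for R2i, beside 14.5%, and 4 for the ground state, beside 18.7%.

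Leaving out each library in turn, members called lower numbered 1 to 3 in 2i, 1 to 2 for R2i and 1 to 4 for the ground state. All miRNAs called lower numbered 58 to 92 (9.63% to 15.3%) in 2i, 53 to 91 (8.77% to 14.9%) in R2i and 91 to 111 (15.2% to 18.2%) in the ground state, and those higher in 2i against R2i 0 to 3. The log2 fold change of miR-335-5p in R2i ran from −0.998 to 0.23 and that of miR-296-5p from −0.31 to 0.0136. In 2i against R2i that of miR-335-3p ran from −1.15 to 0.0143 and that of miR-296-5p from −0.16 to 0.14. The cause was not tested. A medium left with 1 library is assumed to vary like the others. Depth limits Mir675 and miR-483-5p most, since 3 counts stand for 0.835 to 2.88 CPM, and RB18 had the smaller library in each medium, so depth and line cannot be told apart.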
